A study of Mus musculus with 4 samples.

Results

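In pancreatic islets, 547 genes carried N6-methyladenosine (m6A) peaks in both genotypes but at places that never met. These genes were chosen by the readout itself. A gene was taken when it had at least 1 peak in the deposited list of each genotype, and none of its control peak blocks overlapped a knockout peak block by 1 base or more on the same strand. They made up 13.2% of the 4137 genes that both lists name, and 7491 genes had a peak in either list. They held 687 of 9411 knockout peaks and 744 of 10964 control peaks. The share of 13.2% is set by the rule and is given as a description.

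The peaks came from methylated RNA immunoprecipitation sequencing (MeRIP-seq), in which an antibody against m6A enriches RNA fragments (IP) that are then sequenced beside the unenriched RNA (input). The knockout group was Wtap-βKO, named in the labels as a loss of Wtap in beta cells. Its RNA was pooled from 19 mice aged 7 weeks. The control group was Wtapflox/flox, with RNA pooled from 10 mice of the same age, and both groups ate normal chow. Each genotype gave 1 IP and 1 input library. There was therefore no replicate, no test between genotypes and no p-value, and a difference between the lists cannot be told apart from a difference between 2 pools. The labels do not name the Cre line or the floxed exons. Whole islets also hold cells other than beta cells, which a beta cell deletion does not target. A peak list carries no expression level, so the tissue could be checked only by which marker genes had peaks. Of the gene lists used, 33 beta cell function genes and 31 markers of other islet and pancreatic cells had a peak in either genotype.

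N6-methyladenosine is the commonest internal mark of mammalian mRNA, and it is written in the nucleus by a complex of the METTL3 and METTL14 methyltransferases with WTAP, an adaptor that holds the complex at nuclear speckles. The mark sits mostly in long internal exons and around stop codons, where it is bound by reader proteins that act on splicing, translation and decay, and FTO and ALKBH5 can remove it. In beta cells the m6A writers are known to be needed for insulin secretion and mature cell identity. The antibody also binds a second, related base, m6Am, which stands next to the cap as the first transcribed nucleotide.

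Peaks over the first transcribed bases are the places where the letters under a peak could be read, because RefSeq tables give sequence around gene starts. A peak covered some of the first 50 bases of a RefSeq start in 15 of the 547 genes. It was a knockout peak in 7 of them, a control peak in 8, and peaks of both genotypes in 0. The stretches that follow are shown because some of the first 50 bases lay under a peak of 1 genotype and none under a peak of the other. In Zmpste24, Yars, Tbc1d5 and Srsf2 the peak did not reach the start base itself. The stretches are the covered bases, up to 30 of them, on the transcribed strand of GRCm38.p6, written 5′ to 3′, with capitals on AAC and GAC, the letters at the centre of the m6A consensus. Zmpste24 and Ctnnb1 came from the rule for named genes, and the other 6 were added after their values were seen. The first 6 lay under knockout peaks and the last 2 under control peaks.
Zmpste24, chr4:121098161-121098181, minus strand: ttgaagagtaaggctggaggg
Hnrnpa2b1, chr6:51469816-51469845, minus strand: agtagcagcggcgccggtcccgtgtgcagg
Bhlhe41, chr6:145865391-145865420, minus strand: ggggcggccAACtgcttcacactttcaata
Fbxo8, chr8:56551154-56551183, plus strand: actcgggcttctgcaggcagaggtgctgtg
Yars, chr4:129189909-129189938, plus strand: tgcAACccGACggGACtagcgtGACagttc
Tbc1d5, chr17:51179303-51179322, minus strand: cgctggtcaccgccgccacc
Ctnnb1, chr9:120933578-120933607, plus strand: cgtcagtgcaggaggccgaggccgagcggg
Srsf2, chr11:116853045-116853064, minus strand: tcgggtgctctgcggcggcc

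Of the 5 printed stretches that are 30 bases long, 2 hold AAC or GAC, those of Bhlhe41 and Yars. Among all 32817 RefSeq starts, 50.9% hold one of these words in the first 30 bases. The 3 shorter stretches hold neither, and 35.0% of all starts hold one in bases 31 to 50. Over all 15 genes, 4 stretches held AAC or GAC. The longer words GGAC followed by A, C or T, searched on the transcribed strand in the first 50 bases, were present in 1 of the 15 genes, Yars, against 15.4% of all starts. The start base itself was A in 9 of the 15, against 34.4% of all starts, but only 4 of the 15 peaks covered that base. These are descriptions of a few windows, and absence of a word says nothing beyond the window searched.

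Peaks are described with 2 deposited values. The fold enrichment is the peak caller's ratio of IP over input, and −log10 q is larger for a peak with a smaller adjusted p-value. Both are the authors' own values for each peak, and they rank peaks within a list. Positions are 1-based on GRCm38. High folds repeat on a fixed step in each list: 79.5% of knockout folds of at least 8 and 78.7% of such control folds lay on whole multiples of 0.815 and 1.053, in that order. These folds are called step folds here. The number of reads behind a step was not given in the sources used here.

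The writer gene itself was one of the 547. Wtap had its single knockout peak on chromosome 17, minus strand, at 12969434 to 12972739, in 2 exon blocks, with a fold of 3.37 and a −log10 q of 6.38. Its 2 control peaks had folds of 3.16 and 23.2 and −log10 q of 3.76 and 4.45, and the second fold was a step fold. The knockout peak lay between the 2 control peaks, 1382 bases from the nearer one. The pair of genes of the m6A machinery beside it were Hnrnpa2b1 and Fto, so 3 of 12 machinery genes with peaks in both lists (25%, interval 5.49 to 57.2) had no overlapping pair, against 13.2% of all genes. Intervals of shares are exact Clopper-Pearson 95% intervals, and they cover counting error over genes or peaks only.

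Hnrnpa2b1, a nuclear RNA-binding protein described as an m6A reader, had its knockout peaks at the 5′ end of the gene. They had folds of 2.05 and 2.82 and −log10 q of 11.8 and 4.76, and the first covered the RefSeq start printed above. The single control peak had a fold of 1.49 and a −log10 q of 3.67 and lay 2097 bases downstream of the nearer knockout peak. Fto, the demethylase gene, was weaker in both lists. Its knockout peak had a step fold of 13.0 and a −log10 q of 2.02, and its control peak a fold of 1.62 and a −log10 q of 2.25, at 33078 bases from each other. Among these 3 genes, Hnrnpa2b1 and Wtap had a best q of 0.001 or less in both lists, and Fto did not.

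Of 25 beta cell transcription factor genes with peaks in both lists, 6 were among the 547 (24.0%, 9.36 to 45.1), against 13.2% of all genes. Of these, 5 are described here, Mlxipl, Sox4, Hnf4a, Tcf7l2 and Mnx1, and in each of the 5 the knockout peak lay on the 5′ side of the nearest control peak, a point noticed after the values were seen. Mlxipl encodes ChREBP, the glucose-responsive factor. Its knockout peak on chromosome 5, at 135122786 to 135122995, had a fold of 4.83 and a −log10 q of 7.26. Its control peaks lay 9402 bases or more downstream, with folds of 2.22 and 2.18 and −log10 q of 7.78 and 11.3. Both genotypes thus had a well supported Mlxipl peak in a different stretch of the gene.

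Sox4, a high-mobility-group factor of endocrine development, had 2 knockout peaks with folds of 2.96 and 2.70 and −log10 q of 3.58 and 4.76. Its single control peak, 898 bases further downstream, had a fold of 3.72 and a −log10 q of 10.2. The other 3 had weak peaks. Hnf4a, a gene mutated in a monogenic diabetes, had step folds of 12.2 in the knockout and 15.8 in the control, 478 bases apart. Tcf7l2, a Wnt pathway effector, had step folds of 15.5 in the knockout and 16.9 in the control, 12438 bases apart. Mnx1, a homeobox gene of beta cell identity, had folds of 7.34 in the knockout and 7.37 in the control, 389 bases apart. In these 3 genes the highest −log10 q was 3.61, in the control peak of Tcf7l2.

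Of the beta cell function genes, Ptprn, which encodes a dense-core granule membrane protein, was the one with peaks without overlap, 1 of 25 (4.00%, 0.101 to 20.4), and this interval includes the 13.2% of all genes. Its knockout peak lay 22 bases from the RefSeq 3′ end, with a fold of 1.80 and a −log10 q of 3.92. Its control peak lay 10828 bases upstream of it, with a fold of 1.59 and a −log10 q of 2.10. None of 33 genes of the unfolded protein response and ER quality control was among the 547, against 13.2% of all genes, and the upper limit of that share was 10.6%. These 33 genes had well supported peaks. The lower of a gene's best −log10 q in the 2 lists had a median of 11.5 among them, against 5.26 over all genes with peaks in both lists. The highest such value among the 547 genes was 8.26, so this 0 cannot be told apart from the strength of the peaks. Of the exocytosis genes, 2 of 21 (9.52%, 1.17 to 30.4) were included, an interval that also includes 13.2%. Unc13b, a vesicle priming factor, had a control peak with a fold of 4.21 that stood 29 bases from a knockout peak with a step fold of 12.2. Stxbp5l, a tomosyn that restrains vesicle fusion, had a knockout fold of 6.25 and a control fold of 2.59, 18595 bases apart.

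The genes with the best supported peaks in both lists had peaks close together in some cases and far apart in others. Of the 202 genes with a best q of 0.001 or less in both lists, 32 (15.8%) had peaks within 100 bases, against 13.0% of all 547. In 86 of the 202 (42.6%) the peaks were over 1000 bases apart, against 257 of all 547. Only 28 of the 547 (5.12%) had a best −log10 q of at least 5 in both lists, against 2152 of the other 3590 genes (59.9%). Ctnnb1, the gene of β-catenin, led the 28. Its knockout peak spanned 3 exon blocks on chromosome 9, plus strand, at 120950545 to 120951286, with a fold of 2.14 and a −log10 q of 8.26. Its 4 control peaks had folds from 1.38 to 3.05 and −log10 q from 3.08 to 12.1. One of them, at 120951315 to 120951495, began 28 bases past the end of the knockout peak, so the separation was of the smallest size seen. The other 3 control peaks lay at the start and near the 3′ end, with no knockout peak there.

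Rgs16, a regulator of G protein signalling, repeated this pattern of close neighbours. Its knockout peak had a fold of 2.20 and a −log10 q of 7.86, and ended 59 bases before a control peak with a fold of 3.62 and a −log10 q of 9.90. Kdm6b, a histone H3 demethylase, had a single knockout peak, with a step fold of 13.0 and a −log10 q of 6.99. Control peaks flanked it on both sides, the nearer at 59 bases, and the 4 control folds ran from 3.26 to 17.9, the highest a step fold. Maea, a subunit of an E3 ubiquitin ligase, had a knockout peak with a −log10 q of 7.79 and a control peak with one of 6.56, 267 bases apart. In these genes the 2 lists marked neighbouring stretches.

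Other well supported genes had peaks far apart. Dnaja2, an Hsp40 co-chaperone, had a knockout peak with a fold of 2.50 and a −log10 q of 7.42 near the 5′ end. Its control peak lay 13866 bases downstream, with a fold of 4.06 and a −log10 q of 8.42. Zmpste24, the protease that matures lamin A, differed from one end to the other. Its knockout peak covered the stretch printed above, short of the start base, with a fold of 2.78 and a −log10 q of 5.80. Its control peaks lay at the 3′ end and 1793 bases before it, with folds of 3.63 and 4.21 and −log10 q of 18 and 7.49, and the nearer one was 32138 bases from the knockout peak. Pdcd6ip, which encodes the ESCRT-associated protein ALIX, had its knockout peak 6133 bases on the 5′ side of its control peak. The folds were 3.59 in the knockout and 3.21 in the control, with −log10 q of 5.89 in the knockout and 5.94 in the control. Mepce, a capping enzyme of a small nuclear RNA, had a knockout fold of 4.75 and a control fold of 2.67, 3010 bases apart, and its −log10 q was 6.47 in the knockout and 6.37 in the control.

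**Figure D1:**
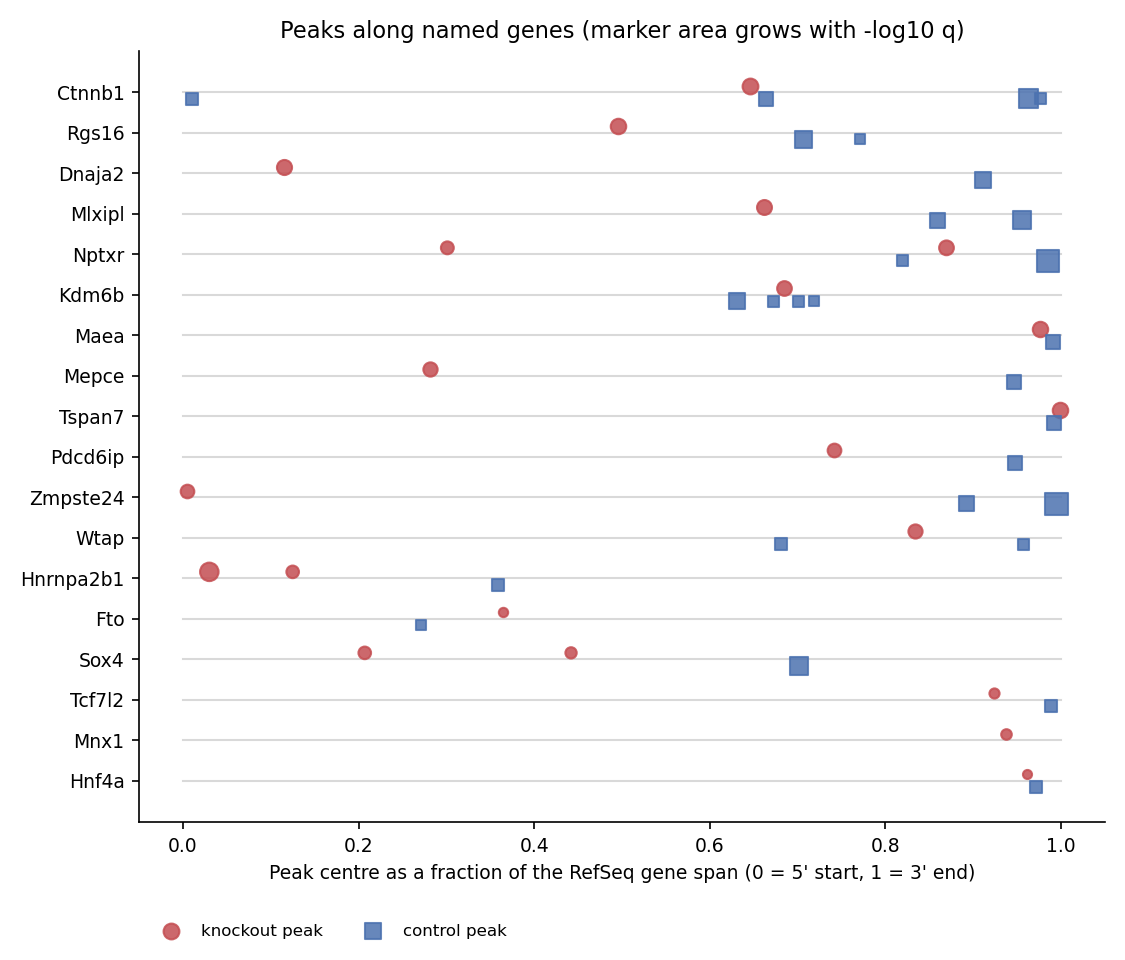
Peaks of 18 genes without overlap, drawn at the centre of each peak's span (introns included) as a fraction of the RefSeq gene span from 5′ start to 3′ end. Circles are knockout peaks, squares are control peaks and marker area grows with −log10 q; Zmpste24 and Dnaja2 have the knockout peak near the start and control peaks near the 3′ end, while those of Maea nearly touch, and the control peak of Mnx1 lies outside its RefSeq span and is not drawn.

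The plot of peaks along named genes shows 18 of them, of which 11 are among the 12 that rank highest by the lower of their 2 best −log10 q values, and the rest are m6A machinery and beta cell transcription factor genes. No common layout is visible in it. Knockout peaks stand 5′ of the nearest control peak in 8 of these 11 genes, namely Ctnnb1, Rgs16, Dnaja2, Mlxipl, Maea, Mepce, Pdcd6ip and Zmpste24. They stand 3′ of it in Nptxr, Kdm6b and Tspan7. Tspan7, a tetraspanin, had its knockout peak at the very 3′ end of the RefSeq span, with a fold of 2.12. Its control peak, 627 bases upstream, had a fold of 1.95. Nptxr, a pentraxin receptor, had its strongest peak in the control list, with a −log10 q of 17.0 at 30 bases from the 3′ end, and no knockout peak there.

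Across all 547 genes, the knockout peak lay on the 3′ side of the nearest control peak in 284 (51.9%, 47.6 to 56.2). The share was 52.1% for the 117 genes with peaks at most 200 bases apart, 55.5% for the 173 genes between 200 and 1000 bases, and 49.4% for the 257 genes beyond that. It was 49.0% of the 149 genes with peaks over 5000 bases apart. Each of these intervals includes 50%, and the share fell on either side of 50% under different settings of the peak lists, between 46.8% and 53.3%. Among genes with the knockout peak far to the 3′ side were Dhx15, a splicing helicase, Clu, the clusterin gene, Eml5, Sart3 and Rbm5, a splicing regulator. Clu had its knockout peak 31 bases from the 3′ end, with a fold of 1.89 and a −log10 q of 7.88. Its control peak lay 5731 bases from that end, with a fold of 1.80 and a −log10 q of 5.2.

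The distance between the nearest peaks ranged from 28 to 444639 bases, with a median of 829 bases. In 290 genes (53.0%, 48.7 to 57.3) the nearest peaks were within 1000 bases of each other, counted along the genome, introns included. In 71 genes (13.0%) they were within 100 bases. The commonest distances were evenly spaced, with 26 genes at 29 bases, 22 at 59, 12 at 89 and 9 at 119. At the far end were Tbc1d5, a Rab GTPase-activating protein, Vti1a, a SNARE protein at 304063 bases, Akap6 at 252056 and Ptprm at 232558. Tbc1d5 had a knockout peak 1877 bases from the 5′ end of its RefSeq span, over part of a second RefSeq start printed above, with a step fold of 13.9 and a −log10 q of 2.22. Its control peak, 444639 bases away near the 3′ end, had a fold of 7.16 and a −log10 q of 7.42.

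**Figure D2:**
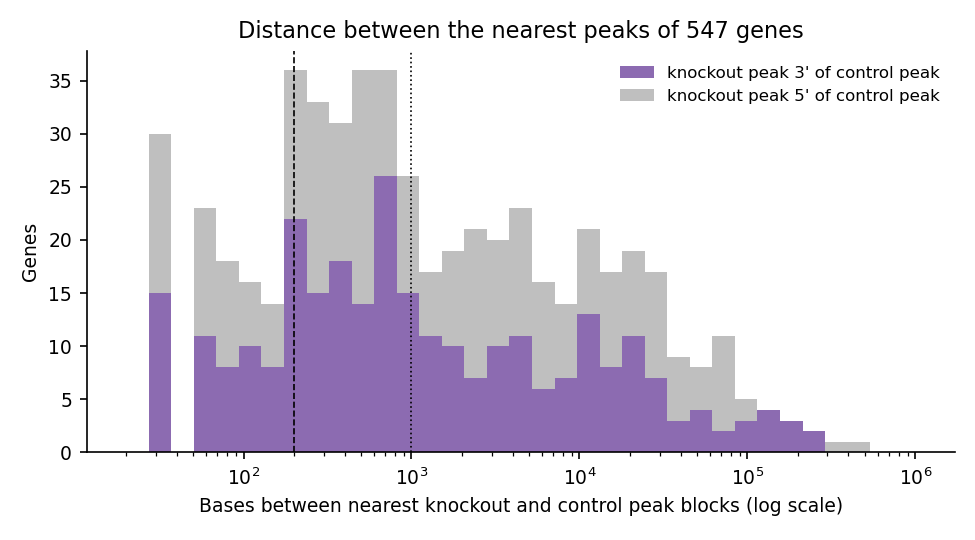
Number of genes by the distance in bases between their nearest knockout and control peak blocks, on a log axis, with the knockout peak 3′ of the control peak in purple and 5′ of it in grey, stacked. Dashed and dotted lines mark 200 and 1000 bases; 290 of the 547 genes lie at or left of the dotted line, and the first bar holds the genes at 28 and 29 bases.

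The plot of distances shows how near the threshold many genes lie. Just inside it were Ctnnb1, Gprasp2 and the histone gene Hist2h2bb at 28 bases, and the corepressor gene Bcor and the carboxypeptidase gene Cpm at 29. Gprasp2 had a knockout fold of 3.02 and a control fold of 3.35 at the nearest pair, and Bcor had a knockout fold of 2.73 and a control fold of 3.05. Just outside, with 1 overlapping base, were Bcl2l2, Bicra, Casp8ap2, Ccdc71 and Chchd4. Bcl2l2, a survival gene of the BCL2 family, had a knockout peak with a step fold of 11.4 that met a control peak with a fold of 2.39. Ccdc71 had a knockout fold of 6.52 and a control fold of 5.27. The genes on either side of the threshold thus had nearest peaks between 1 shared base and a gap of 29.

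Most of the 547 genes had few and weak peaks. A single peak in each list was found in 312 of them (57.0%), against 1226 of the other 3590 genes with peaks in both lists (34.2%). A best q of 0.001 or less in both lists was found in 202 (36.9%, 32.9 to 41.1), against 3062 of the others (85.3%). The median −log10 q of their peaks was 3.04 in the knockout and 3.13 in the control. Overlapping peaks of the other genes had medians of 6.41 in the knockout list and 7.67 in the control list. Peaks without a counterpart in those other genes had medians of 3.44 in the knockout list and 3.69 in the control list, and peaks of genes found in 1 list alone had 3.12 in the knockout list and 3.29 in the control list. The peaks of the 547 genes were thus close in q to other peaks without a counterpart.

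When the 4137 genes were divided into 10 equal bins by the lower of their 2 best −log10 q values, the share without an overlapping pair was 43.7% in the lowest bin and 37.0% in the next. It was 6.52% in bin 5, and 1 gene of 413 (0.242%) in bin 8, which was Ctnnb1. In the top 2 bins it was 0 of 414 each, with an upper limit of 0.887%. The number of peaks ran the same way. The share was 20.3% of the 1538 genes with 1 peak in each list, 5.39% of the 408 genes with 2 in each, and 1 of 599 genes with 3 or more in each. That gene was Zfp318, a zinc finger gene, with 4 knockout peaks of fold 2.38 to 5.22 and 3 control peaks of fold 5.44 to 6.06. Peak number and q moved together with the share, and the part of either in it was not tested.

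**Figure D3:**
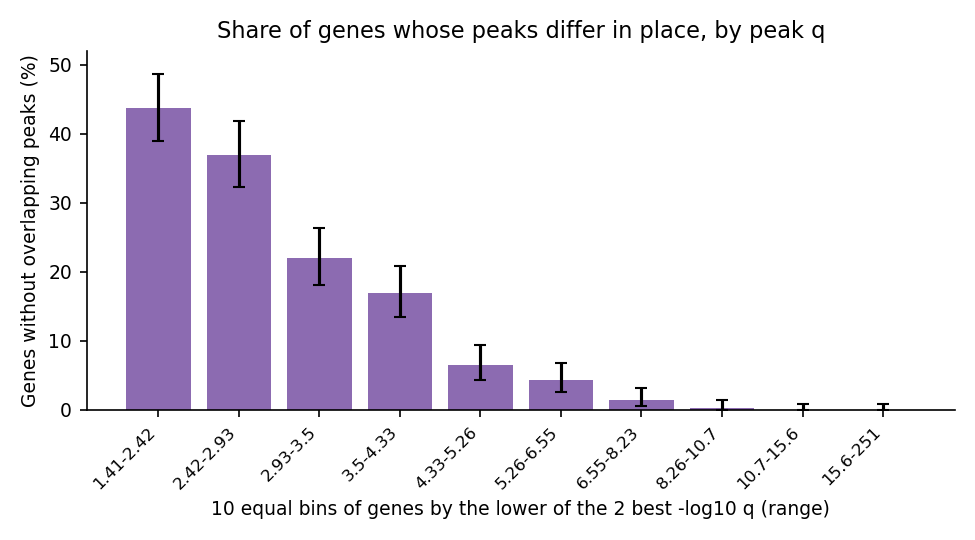
Percent of genes without an overlapping pair, in 10 equal bins of the 4137 genes, ordered by the lower of the best −log10 q in the knockout and in the control list. Bars are shares and error lines exact 95% intervals for counting error; the share is 43.7% in the lowest bin and 0 in the top 2, the last of which also holds genes with a listed q of 0.

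The plot by q shows the share in every bin. Folds went the other way. The median fold of peaks of the 547 genes was 4.89 in the knockout and 5.06 in the control, above the medians of overlapping peaks, 3.31 in the knockout list and 3.67 in the control list. Peaks of genes in 1 list had medians of 4.08 in the knockout list and 5.27 in the control list. For peaks without a counterpart in other genes, the medians were 3.26 in the knockout list and 3.55 in the control list. Part of the folds of the 547 genes were step folds. Such folds made up 26.3% of the knockout peaks and 25.7% of the control peaks of the 547 genes. Among overlapping peaks they were 4.11% in the knockout list and 5.71% in the control list. Peaks of genes in 1 list had shares near those of the 547 genes, 25.4% in the knockout list and 28.2% in the control list. Among peaks without a counterpart in other genes, step folds were 11.4% in the knockout list and 12.8% in the control list. Without step folds the median fold of the 547 genes' peaks was 3.66 in the knockout and 4.00 in the control. Counted the same way, overlapping peaks had 3.26 in the knockout list and 3.55 in the control list. Peaks of genes in 1 list had 3.26 in the knockout list and 4.1 in the control list, and peaks without a counterpart in other genes had 3.06 and 3.26, in that order.

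Identical pairs of values recurred among the step folds. A fold of 13.9 with a −log10 q of 2.22 was listed for 11 knockout peaks of the 547 genes and for 52 peaks of the whole knockout list. In the control list, a fold of 14.7 with a −log10 q of 2.36 was listed for 22 peaks of the 547 genes and for 90 peaks in all. At least 1 step fold was present in 267 of the 547 genes (48.8%), against 696 of the other genes (19.4%). Kcnb2, a voltage-gated potassium channel gene, shows what such a gene looks like. Its knockout peak had a fold of 17.1, and its control peaks, the nearer at 268 bases, had folds of 14.7 and 20, all of them step folds.

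Peaks of the 547 genes were shorter than overlapping peaks and crossed a splice junction less often than peaks over the whole lists. Their median length was 151 nt in the knockout and 180 nt in the control, and that of overlapping peaks was 269 nt in the knockout list and 300 nt in the control list. Peaks without a counterpart in other genes had medians of 180 nt in the knockout list and 181 nt in the control list. Those of genes in 1 list had 174 nt in the knockout list and 180 nt in the control list, so the control peaks of the 547 genes were close in length to both classes. Peaks with 2 or more exon blocks were 93 of 687 in the knockout (13.5%, 11.1 to 16.3) and 60 of 744 in the control (8.06%, 6.21 to 10.3). Over the whole lists these shares were 18% in the knockout and 11.7% in the control. Among the peaks without a counterpart in other genes, junction-spanning peaks were 27.0% in the knockout and 9.08% in the control. Among peaks of genes in 1 list they were 17.8% in the knockout and 6.47% in the control. Rgs16, Pdcd6ip and Wtap had such knockout peaks and the control peaks nearest to them lay in single blocks. The reverse was found in Mlxipl, Csnk1d, Dhx15 and Zmpste24, where the nearest control peak had 2 exon blocks and the knockout peak a single one.

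Peaks of both genotypes were found near gene ends in similar shares over the full lists, but not under every setting. Within 1000 bases of the RefSeq 3′ end lay 21.6% of the knockout peaks (139 of 645 matched) and 20.9% of the control peaks (147 of 704). With peaks of q at or under 0.001, the shares were 15.8% of knockout peaks and 22.7% of control peaks, and without step folds 19.3% of knockout peaks and 24.7% of control peaks. Within 300 bases of the start lay 2.79% of the knockout peaks and 2.98% of the control peaks. Over the whole lists, 20.4% of knockout and 22.7% of control peaks lay near the 3′ end, and 3.58% of knockout and 2.91% of control peaks near the start. By gene, 78 of 512 matched genes had only a knockout peak near the 3′ end (15.2%), 81 had only a control peak there (15.8%), and 55 had peaks of both without overlap (10.7%). In the other 3218 matched genes these shares were 3.82% with only a knockout peak, 7.71% with only a control peak and 28.99% with both. Peaks of both can overlap in the other genes, and the rule forbids this in the 547. The shares are therefore not directly comparable, and the difference was not tested. Near the start, 16 genes had only a knockout peak (3.1%) and 20 only a control peak (3.9%), against 2.80% and 2.24% of the other genes, in that order. The span of the genes was also close to that of the others, with medians of 32184.5 bases in the 547 genes and 32762.5 in the rest.

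A few genes had a start peak in one genotype and a 3′ end peak in the other, in some of them beside other peaks. Besides Zmpste24, these included Gpx1, the glutathione peroxidase gene. Its knockout peak lay 176 bases from the start with a fold of 4.8 and a −log10 q of 6.27, and its control peak lay 146 bases from the 3′ end with a fold of 2.53 and a −log10 q of 4.96. The gene is short, and the knockout peak lay 734 bases from the 3′ end, so both genotypes had a peak within 1000 bases of that end. Dcaf7, a WD-repeat adaptor, had the reverse layout. Its knockout peaks had folds of 1.79 and 1.93, the second at 598 bases from the 3′ end, and its control peak stood 90 bases from the start with a fold of 1.53. Ugt2b34, a glucuronosyltransferase gene, had peaks of both genotypes close to both ends, side by side. The nearest pair was a knockout peak with a fold of 2.49 and a control peak with a fold of 1.56.

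The 547 genes were also counted over 25 lists and name families, which were looked at together and not tested. The zinc finger family held the largest number, 52 of 203 genes (25.6%, 19.8 to 32.2), against 13.2% of all genes. Most members of this large family encode DNA-binding proteins, many of them KRAB repressors, with the fingers in 1 long last exon. The family was taken by name and includes Zfyve16, whose finger binds a lipid. In the lowest 4 bins of q, 49 of its 106 genes had no overlapping pair (46.2%), against 495 of 1655 genes of all kinds (29.9%). Among genes with 1 peak in each list it was 20 of 40 (50%), against 20.3%. These 2 narrower counts were made after the data were seen. The median distance in the family was 313.5 bases, 11 of the 52 genes were within 100 bases, and 21 had a best q of 0.001 or less in both lists.

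Zinc finger genes with the best supported peaks had closely set peaks of both genotypes. Zfp263, a KRAB zinc finger gene, had a single peak in the knockout, of fold 4.21 and −log10 q 4.71. It began 89 bases after a control peak with a fold of 4.21 and a −log10 q of 2.55, and 2 further control peaks had folds of 14.2 and 4.74. Zbtb22, a BTB zinc finger gene, had 2 knockout peaks with folds of 6.68 and 6.79, both of them between its 2 control peaks with folds of 4.42 and 4.21. Zfp868 had knockout folds of 16.3, a step fold, and 6.52, and a control fold of 8.16, 357 bases from the nearer knockout peak. Zfp780b had knockout folds of 7.88, 10.2 and 20.4, the last a step fold. Its control peak, with a step fold of 21.1, stood between 2 of the knockout peaks.

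**Figure D4:**
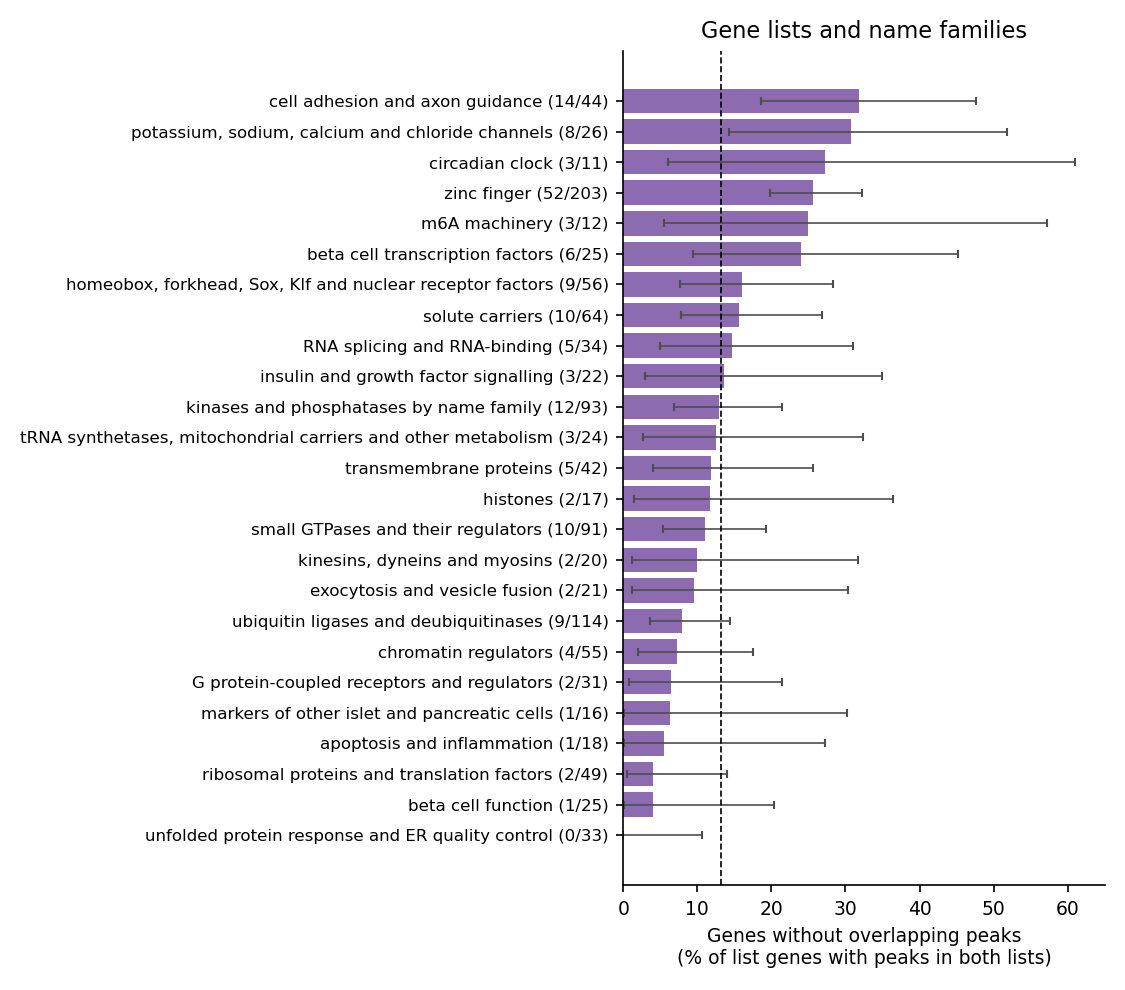
Percent of each list's genes with peaks in both lists that had no overlapping pair, with the counts in brackets and exact 95% intervals for counting error. The dashed line marks the 13.2% of all genes; zinc finger genes lie at 25.6%, cell adhesion genes at 31.8% with the protocadherin gamma genes included, and unfolded protein response genes at 0.

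Cell adhesion and axon guidance genes had the highest share in the plot of gene lists, 14 of 44 (31.8%, 18.6 to 47.6). Of these 14, 11 were protocadherin gamma (Pcdhg) genes, which share a set of 3′ exons on chromosome 18. A knockout peak near that 3′ end, between 37839983 and 37840173, was listed again for each of 22 Pcdhg genes, with folds from 1.44 to 1.5 and −log10 q from 2.69 to 2.95. No control peak was listed there. It was the only knockout peak of 9 of the 11 genes. The control peaks of the 11 genes numbered 20 and lay upstream of it, between 37664041 and 37817203, with folds from 2.39 to 20, the highest a step fold. The other 2, Pcdhga1 and Pcdhgc3, had further knockout peaks of their own. Leaving out the Pcdhg genes, the count was 3 of 29 adhesion genes (10.3%, 2.19 to 27.4). Those were the ephrin gene Efnb2, the semaphorin gene Sema6a and the integrin gene Itgb5.

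Ion channel genes had no overlapping pair in 8 of 26 cases (30.8%, 14.3 to 51.8), against 13.2%. They were Clcn4, Kcnb2, Kcnj3, Kcnj6, Kcnk3, Scn8a, Trpm3 and Trpm7, and 2 of the 8 had a best q of 0.001 or less in both lists. Kcnk3, a two-pore potassium channel gene, had 3 knockout peaks with folds of 4.13, 4.08 and 4.73, and 1 control peak with a step fold of 17.9, 955 bases downstream. Trpm3, a cation channel gene of beta cells, had a knockout peak with a step fold of 8.97 and a control peak with a step fold of 14.7, 149 bases apart. Kcnj6, an inward rectifier gene, had a knockout fold of 2.36 and a control step fold of 19, 70542 bases apart. All 8 channel genes fell in the lowest 4 bins of q, as did 495 of the 547 genes. In those bins, 8 of 11 channel genes had no overlapping pair (72.7%), against 29.9% of genes of all kinds. Among genes with 1 peak in each list it was 5 of 8 (62.5%), against 20.3%. These narrower counts were also made after the data were seen, and they were not tested.

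The other lists had from 1 to 12 such genes each, apart from the list with none already given. In all of them the interval of the share includes the 13.2% of all genes. Circadian clock genes were 3 of 11 (27.3%, 6.02 to 61.0), among them Bhlhe41 and Nr1d1, all 3 with a best q of 0.001 or less in both lists. Nr1d1, a heme-responsive repressor of the clock, had knockout peaks with folds of 1.79 and 2.36 near its 3′ end and in the gene body, and a control peak with a fold of 1.83 at 193 bases from its start. Splicing and RNA-binding genes were 5 of 34 (14.7%). Of these, Srsf2, a serine-arginine splicing factor, had a knockout fold of 2.67 and a −log10 q of 6.53, with a control peak of fold 1.64 and −log10 q 3.96 that lay 713 bases upstream and covered the stretch printed above, short of the start base. Insulin signalling genes were 3 of 22 (13.6%), and Rptor, the mTORC1 scaffold, had peaks of the 2 genotypes 747 bases apart near its 3′ end.

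Homeobox, forkhead, Sox, Klf and nuclear receptor genes were 9 of 56 (16.1%), solute carriers 10 of 64 (15.6%), and kinases and phosphatases 12 of 93 (12.9%). Foxa3, a forkhead factor, had a knockout peak with a fold of 5.82 standing 88 bases from a control peak with a step fold of 16.9. Mapk6, an atypical MAP kinase, had knockout folds of 2.95 and 4.01 and a control peak with a fold of 5.90 and a −log10 q of 13.9, 4578 bases from the nearer knockout peak. Csnk1d, a casein kinase of the clock and of Wnt signalling, had a knockout fold of 2.04 with a −log10 q of 4.58, against a control fold of 4.64 with a −log10 q of 16.2, 357 bases apart. Metabolic and tRNA synthetase genes were 3 of 24 (12.5%), Tmem genes 5 of 42 (11.9%), histones 2 of 17 (11.8%), small GTPase genes 10 of 91 (11%), and kinesins, dyneins and myosins 2 of 20 (10%). Within the GTPase list, Arhgef2, a guanine nucleotide exchange factor, had a knockout peak with a fold of 5.10 and a −log10 q of 17.4. The control peak nearest to it, at 119 bases, had a fold of 8.07 and a −log10 q of 3.36.

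Ubiquitin ligases and deubiquitinases were 9 of 114 (7.89%, 3.67 to 14.5), and chromatin regulators 4 of 55 (7.27%, 2.02 to 17.6), against 13.2% of all genes, which both intervals include. G protein-coupled receptor genes and regulators were 2 of 31 (6.45%), markers of other islet and pancreatic cells 1 of 16 (6.25%), apoptosis and inflammation genes 1 of 18 (5.56%), and ribosomal and translation genes 2 of 49 (4.08%, 0.498 to 14.0). The intervals of these 4 lists include 13.2% too. Rnf19a, a ubiquitin ligase, had knockout folds of 7.92 and 3.21 and a control fold of 6.58, 23367 bases apart at the nearest. Kdm7a, a histone demethylase, had 3 knockout peaks with folds from 3.67 to 8.97, the highest a step fold. Its control peak, with a step fold of 20, lay 178 bases from the nearest knockout peak. The single gene from the markers of other cells was Pdgfrb, the receptor gene of pericytes and other mesenchymal cells. It had a step fold of 43.2 and a −log10 q of 10.6 in the knockout, and a step fold of 22.1 and a −log10 q of 4.18 in the control, 747 bases apart. In bulk islets, a change in the number of such cells and a change in their RNA cannot be told apart.

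The lists count gene entries, which are not always separate pieces of RNA. Of the 547 genes, 23 had a peak that overlapped a peak of another gene in the same list, and 11 of these were the Pcdhg genes. Ajm1, an apical junction gene, was listed with 4 knockout peaks and 2 control peaks, but these were entries shifted by a few bases with the same fold and q. Its knockout folds were 4.08 and 6.32, each listed for a pair of peaks, and its control step fold of 10.5 was listed for another pair. Without a gene name were 25 of the 547. One further gene with no overlapping pair of its own was left out, because its control peak overlapped a knockout peak of another gene.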

How the data were processed

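MeRIP-seq had been run on 4 libraries, 1 IP and 1 input for each genotype. Per the labels, 2 ug of RNA was cut to about 100 nt and incubated with the antibody for 2 hours at 4 °C, and read pairs were 150 bp long. Per the submitters' processing notes, fastp 0.19.11, BWA 0.7.12 and HOMER 4.9.1 were used, with GRCm38 (mm10) as build. Per the labels' protocols, the authors called peaks with exomePeak 2.16.0 for each genotype against its own input, at a q threshold of 0.05. The gene annotation used and the depth of the libraries are not given in the sources used here. The deposited columns are a p-value per peak, its log10 and the log10 of q (treated as scores), and the fold enrichment, the authors' ratio of IP over input. The log10 of the deposited p-value matched its column within 0.02.

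Blocks were read as BED, with starts counted from 0 and printed from 1. Overlap was 1 base or more on the same strand. Distances ran between the nearest blocks along the genome. A step fold was one of at least 8 within 0.055 (0.008 below 10) of a whole multiple of the step. RefSeq spans and start sequences of GRCm38.p6 were matched by symbol and chromosome for 512 of the 547 genes. No genome sequence or exon annotation was used here, so peaks were not assigned to coding exons or UTRs. Python 3.11.15, numpy 2.4.6, pandas 2.3.3, scipy 1.17.1 and matplotlib 3.10.9 were used, and the code was tested on simulated data.

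The genes, the lists and the rule for naming genes were chosen with earlier results of these data known. Named were all genes without overlap in the m6A machinery, beta cell transcription factor and beta cell function lists, and up to 4 from each other list by the lower of both best −log10 q. Over all genes, named were the 12 highest by that value, 5 each with the largest and smallest distances, 5 just outside the threshold, 5 with the most peaks, and 5 for each of 3 layouts (knockout peak over 5000 bases to the 3′ side, or to the 5′ side, or start and 3′ end peaks in different genotypes), with clone names, pseudogenes and mitochondrial genes skipped there. A few genes that this rule takes in were left out of the text. A gene named among the members of a list in full is outside this rule. The 3 sequence features searched and the removal of Pcdhg genes were chosen after the data were seen. As alternatives, both lists were limited to q at or under 0.001 or to folds from 2 up, and further ones were peaks over 200 bases apart, whole peak spans, equal numbers of peaks, no step folds and no Pcdhg genes.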

Additional observations from a re-analysis of the deposited data

How the results depend on the processing

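No paired analysis was possible because the comparison rests on 1 pool for either genotype, and for the same reason no replicate could be left out. Of 67 values recomputed under 7 alternatives, 57 stayed within the main value's counting interval (gene counts within 1.5 times). With whole peak spans the genes were the same 547. The shares of junctions, step folds and peaks near gene ends and starts therefore could not change there, and they are counted among the 57. With a q of 0.001 or less in both lists, the count was 308 genes, of which 202 were among the 547 and 106 were not. There the knockout peak lay 3′ of the control peak in 46.8%, junction-spanning knockout peaks were 17.7%, step folds were 17.7% of knockout and 19.6% of control peaks, and 15.8% of knockout peaks lay near the 3′ end, against 22.7% of control peaks. Among genes over 200 bases apart, 40.2% were within 1000 bases. With equal numbers of peaks, step folds were 22.5% of knockout and 21.1% of control peaks. Without step folds, 409 genes were found, 349 of them among the 547, and 19.3% of knockout and 24.7% of control peaks lay near the 3′ end. Under both settings the order of the genotypes near the 3′ end turned, as it did at a fold of at least 2 (20.7% of knockout and 21.5% of control peaks) and with equal numbers (20.3% of knockout and 21.0% of control peaks). The cause was not tested, except that the distance limit takes out close pairs by its construction. The side with more knockout peaks turned as well: the share with the knockout peak 3′ of the control peak, 51.9% over the full lists, was also under 50% at a fold of at least 2 (49.8%) and without step folds (49.1%). Counts of genes were 568 at that fold, 547 with whole spans, 478 with equal numbers and 536 without Pcdhg genes. Membership could not be checked against read depth, which is unknown.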
